A study of Mus musculus with 6 samples.

Results

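The genes described here are the 3 D-type cyclins, their 2 partner kinases, 4 inhibitors of cyclin-dependent kinases and the retinoblastoma gene Rb1. They were chosen by symbol and matched to Ensembl mouse gene IDs in the count files, which gave 10 genes of the 47729 that each file lists. RNA was sequenced from DN1a/b cells, the earliest Kit-bearing progenitors among thymocytes without CD4 or CD8, sorted by flow cytometry from C57BL/6 mice. RBPJ 6 days induced mice were deficient for RBPJ until their RBPJ was switched on with doxycycline, first by injection (2 mg/ml) and later through drinking water (1 mg/ml). RBPJ uninduced mice had the deficiency without induction. Control mice expressed RBPJ throughout. Each of the 3 groups had 2 libraries. The labels name neither the allele nor the promoter behind the deficiency and the induction, and they do not say whether RBPJ uninduced or Control mice received doxycycline. Separate mice are not stated as the source of a group's libraries, and p-values therefore reflect only how much these libraries differ, which may be technical.

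RBPJ is the DNA-binding factor through which Notch receptors act on their target genes, and Notch signals from the thymic stroma commit DN1 progenitors to the T lineage. Cells leave G1 when D-type cyclins bind Cdk4 or Cdk6 and the complexes phosphorylate the retinoblastoma protein, which then releases E2F factors to switch on genes of DNA synthesis. Inhibitors of the Cdkn2 family bind Cdk4 and Cdk6 directly, while Cdkn1a and Cdkn1b bind cyclin-kinase complexes.

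The starts of the D cyclin coding sequences are shown because they carry the LxCxE motif by which D cyclins dock on the retinoblastoma protein. They are given 5′ to 3′ from the start codon of the longest open reading frame in GENCODE M21 transcripts, with the codons of the motif in capitals.
Ccnd1: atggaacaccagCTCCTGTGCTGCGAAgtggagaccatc
Ccnd2: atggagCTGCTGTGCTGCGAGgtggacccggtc
Ccnd3: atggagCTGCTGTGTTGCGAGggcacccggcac
The motif began at coding base 13 in Ccnd1 and at coding base 7 in Ccnd2 and Ccnd3. The coding sequences were 888, 870 and 879 bases long in Ccnd1, Ccnd2 and Ccnd3. The longest exact stretch shared by transcripts was 20 bases between Ccnd1 and Ccnd2, 17 bases between Ccnd1 and Ccnd3, and 15 bases between Ccnd2 and Ccnd3.

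The corresponding stretch of the inhibitors Cdkn1a (p21) and Cdkn1b (p27) holds the RxLFG motif through which both bind cyclins, and its codons are in capitals. The windows begin at coding base 112 in Cdkn1a and at coding base 70 in Cdkn1b. These positions count from the start of the longest open reading frame, 558 bases in Cdkn1a (transcript Cdkn1a-205) and 594 bases in Cdkn1b. A later start codon in the same frame would give lower positions.
Cdkn1a: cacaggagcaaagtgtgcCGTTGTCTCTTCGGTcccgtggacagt
Cdkn1b: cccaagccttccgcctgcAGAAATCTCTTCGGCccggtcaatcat

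The libraries held 11090902 and 11240828 counts in the RBPJ 6 days induced group, 5098927 and 10918205 counts in the RBPJ uninduced group, and 12932928 and 5311391 counts in the Control group. Rbpj itself, the gene the study switched, had 198 and 203 CPM (reads scaled to a common library total) in RBPJ 6 days induced libraries, 28.2 and 29.98 CPM in RBPJ uninduced libraries and 74.1 and 72.9 CPM in Control libraries. The lowest level in RBPJ uninduced libraries follows the labels. RBPJ 6 days induced libraries lay above Control, an excess that the labels do not state, so they did not simply return to the Control level. Reads of Rbpj were thus present in RBPJ uninduced libraries, and pseudogene copies may share some of them. Progenitor markers (Kit, Cd44, Flt3, Cd24a, Hes1, Lmo2, Spi1 and Bcl11a) were detected in every library and summed to 1915 to 2039 CPM in RBPJ 6 days induced, 1436 to 1600 CPM in RBPJ uninduced and 1467 to 1905 CPM in Control libraries. These sums hid members that went opposite ways. Without overlap, 5 of the 8 markers were lower and 1 higher in RBPJ uninduced than in Control libraries (22.2% and 22.1% of all tested genes). Hes1 averaged 4.09 CPM in RBPJ uninduced and 113 CPM in Control libraries, and Lmo2 244 and 55.5 CPM. Likewise 5 were higher and 1 lower in RBPJ 6 days induced than in RBPJ uninduced libraries (24.8% and 21.8%). Markers of other lineages also differed between libraries. Myeloid markers summed to 771 to 1668 CPM in RBPJ 6 days induced, 3288 to 4425 CPM in RBPJ uninduced and 510 to 582 CPM in Control libraries. Markers of mast cells and basophils summed to 369 to 380, 650 to 954 and 71.6 to 84.2 CPM in those groups. Of these markers, Fcer1a was at 0 in both Control libraries and in RBPJ 6 days induced replicate 2. Markers of erythroid cells and megakaryocytes summed to 169 to 217, 295 to 608 and 17.6 to 42.8 CPM in the same order of groups. Thymic stroma markers summed to 159 to 162, 96.1 to 100.5 and 162 to 164 CPM. Foxn1, Psmb11 and Krt8 were at 0 in Control replicate 1, and Psmb11 and Epcam in RBPJ uninduced replicate 1. Most of that sum was Pecam1, an endothelial gene that blood progenitors also express, at 152 and 156, 85.0 and 90.9, and 161 and 145 CPM. RBPJ uninduced replicate 2 stood apart with 737 CPM of B-lineage markers (Pax5 and Ebf1 among them), against 7.16 to 41.7 CPM in the other 5 libraries. Mitochondrial rRNA took 16.5% of its counts, against 9.26% to 12.4% in the other 5. Control replicate 2 stood apart with 638 CPM of later thymocyte markers (Rag1 and Bcl11b among them), against 21.4 to 165 CPM in the other 5. Il2ra, of the same list, went the other way, at 15.9 CPM in Control replicate 2 and 30.2 CPM in Control replicate 1. The other markers of that list were each highest in Control replicate 2. Rag1 alone gave 126 CPM of the sum in RBPJ uninduced replicate 2.

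All 10 genes passed the filter on low counts and were tested among 18174 genes. Adjusted p-values are from edgeR's quasi-likelihood test with Benjamini-Hochberg adjustment over all genes tested, unless another tool is named, and a gene was called where its adjusted p was under 0.05. In the RBPJ 6 days induced libraries against the RBPJ uninduced libraries, 1 of the 10 genes was called, Ccnd1, which fell. In that comparison 1.96% of all tested genes were called, 1.55% higher and 0.413% lower. Against Control, none of the 10 genes was called in RBPJ uninduced libraries, where 5.42% of all genes were called (2.49% higher and 2.93% lower), and none was called in RBPJ 6 days induced libraries, where 0.187% of all genes were called. At an unadjusted p under 0.05, the counts were 2 of 10 for RBPJ 6 days induced against RBPJ uninduced, 3 of 10 for RBPJ uninduced against Control and 2 of 10 for RBPJ 6 days induced against Control, beside 15.4%, 18.8% and 5.17% of all genes. DESeq2 called 1 gene (Ccnd1), 0 genes and 0 genes of the 10 in the same comparisons. Over all genes it called 1033, 1675 and 212, against 357, 985 and 34 by edgeR. The median log2 fold change of the 10 genes was -0.09 in RBPJ 6 days induced against RBPJ uninduced, -0.02 in RBPJ uninduced against Control and -0.14 in RBPJ 6 days induced against Control, beside -0.03, -0.02 and -0.02 over all genes.

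**Figure D1:**
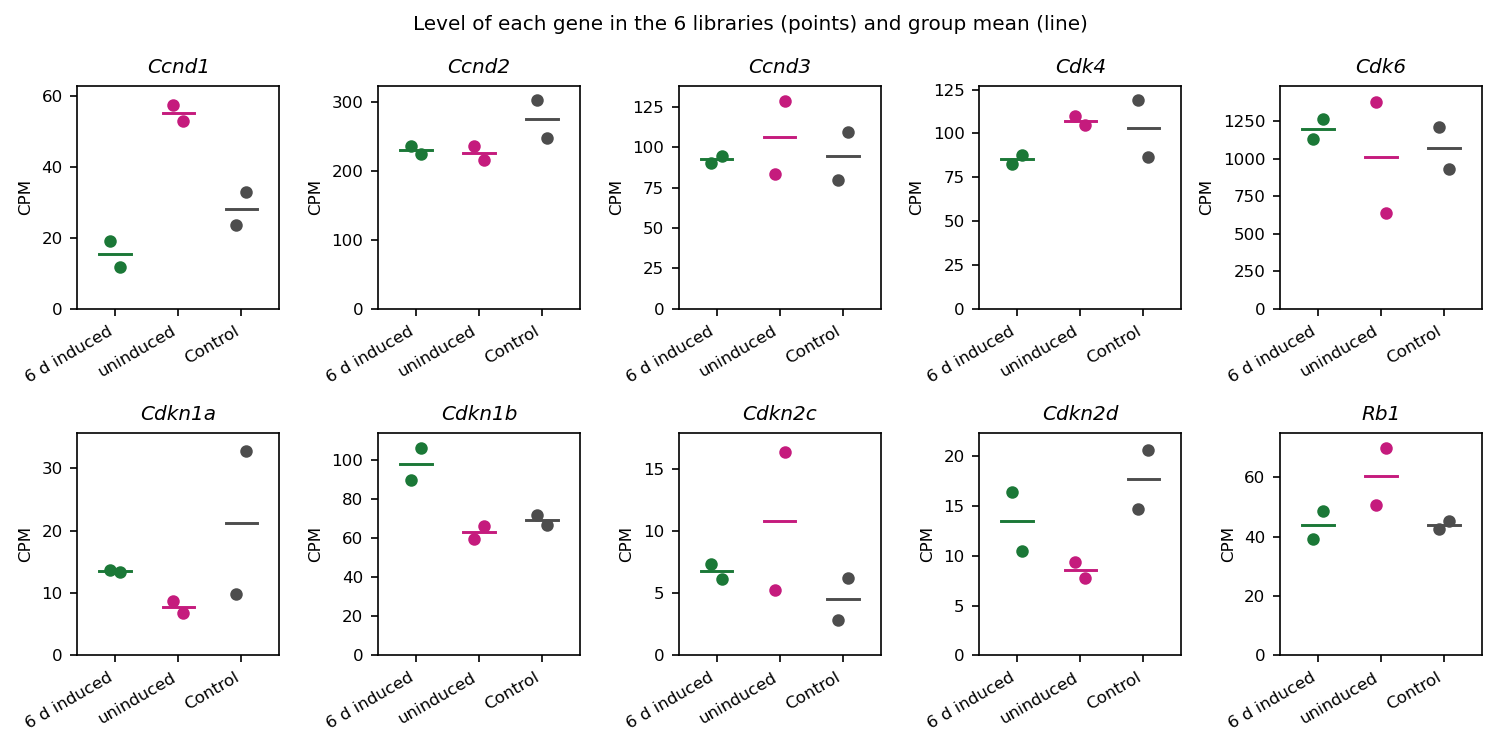
Level of each of the 10 genes in CPM (vertical axis, from 0) in the 2 libraries of each group (points), with the group mean as a line. Ccnd1 lies at 52.8 and 57.5 CPM in RBPJ uninduced libraries and at 32.9 CPM or less in the other 4, while the points of Cdk6, Ccnd3 and Cdkn2c spread widely within the RBPJ uninduced group.

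Ccnd1, the cyclin through which many growth signals reach Cdk4 and Cdk6, had 19.1 and 11.9 CPM in RBPJ 6 days induced libraries, 57.5 and 52.8 CPM in RBPJ uninduced libraries and 23.6 and 32.9 CPM in Control libraries. Both RBPJ uninduced libraries lay above the other 4, and both RBPJ 6 days induced libraries lay below the other 4, so no groups overlapped. The group means were 15.5 ± 5.06 CPM in RBPJ 6 days induced, 55.2 ± 3.34 CPM in RBPJ uninduced and 28.3 ± 6.57 CPM in Control (SD, n = 2 each). Ccnd1 (mm10 chromosome 7, bases 144929931 to 144939925, minus strand) fell 3.56-fold in RBPJ 6 days induced against RBPJ uninduced libraries, with a log2 fold change of -1.83 (SE 0.320, 95% interval -2.55 to -1.11, adjusted p = 0.0259). In RBPJ uninduced against Control libraries its log2 fold change was 0.97 (SE 0.313, interval 0.27 to 1.68, adjusted p = 0.12), and in RBPJ 6 days induced against Control libraries it was -0.86 (SE 0.316, interval -1.57 to -0.15, adjusted p = 0.745), neither past the threshold.

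The fall of Ccnd1 kept its direction in all 15 alternative analyses, with log2 fold changes from -2.18 to -1.47, and passed the threshold in 13 of them. It missed the threshold without RBPJ 6 days induced replicate 2 (-1.47, adjusted p = 0.166) and in a fit of only the 4 libraries compared (-1.83, adjusted p = 0.0837). Without Control replicate 2 and RBPJ uninduced replicate 2, the libraries rich in later thymocyte or B-lineage markers, the log2 fold change of Ccnd1 was 1.25 in RBPJ uninduced against Control, now 1 library against 1. The myeloid marker sum, most of which was Mpo, and genes of dividing cells were, like Ccnd1, highest in both RBPJ uninduced libraries. Csf1r, a myeloid marker, had 39.7 and 55.6 CPM in RBPJ 6 days induced and 23.1 and 29.1 CPM in RBPJ uninduced libraries. Without overlap, 6 of the 8 myeloid markers were lower and 1 higher in RBPJ 6 days induced than in RBPJ uninduced libraries (21.8% and 24.8% of all tested genes). The 12 dividing-cell genes summed to 1956 to 2301 CPM in RBPJ 6 days induced, 3346 to 4031 CPM in RBPJ uninduced and 1970 to 2088 CPM in Control libraries. The part of myeloid markers and dividing-cell genes in the Ccnd1 difference was not tested. In RNA from sorted populations, fewer cells that express a gene and less RNA of it per cell cannot be told apart.

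Ccnd1 shares 1100 bases of exon with LTO1, a gene on the opposite strand, whose level was 13.2 and 13.1 CPM in RBPJ 6 days induced, 9.21 and 12.7 CPM in RBPJ uninduced and 15.3 and 10.3 CPM in Control libraries. LTO1 was not called in RBPJ 6 days induced against RBPJ uninduced libraries (log2 fold change 0.26, adjusted p = 0.825). Whether the counting used strand is not stated in the labels, so reads over the shared bases cannot be assigned with certainty.

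Ccnd2, the D cyclin with the highest length-scaled level in every library, had 235.9 and 225.4 CPM in RBPJ 6 days induced libraries, 237 and 215 CPM in RBPJ uninduced libraries and 304 and 249 CPM in Control libraries. Its induced and uninduced libraries overlapped, and both groups lay below Control. The log2 fold change of Ccnd2 was 0.03 in RBPJ 6 days induced against RBPJ uninduced libraries, with an interval of -0.37 to 0.42 (adjusted p = 0.968). It was -0.29 in RBPJ uninduced against Control libraries (interval -0.68 to 0.11, adjusted p = 0.441) and -0.26 in RBPJ 6 days induced against Control libraries (adjusted p = 1).

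Ccnd3, the D cyclin that developing thymocytes need to expand after pre-T cell receptor signals, had 90.5 and 94.9 CPM in RBPJ 6 days induced libraries, 83.6 and 129 CPM in RBPJ uninduced libraries and 80.0 and 109 CPM in Control libraries. Every group overlapped the others. Ccnd3 had a log2 fold change of -0.20 in RBPJ 6 days induced against RBPJ uninduced libraries (interval -0.77 to 0.37, adjusted p = 0.782) and 0.17 in RBPJ uninduced against Control libraries (interval -0.39 to 0.74, adjusted p = 0.819). Ccnd3 was highest in RBPJ uninduced replicate 2, the library with the most B-lineage marker RNA and mitochondrial rRNA, whose part in that level was not tested. A processed pseudogene of Ccnd3, 96.3% identical over 881 bases, had at most 16 counts in any library, and Bysl on the opposite strand shares 361 bases of exon with it. Bysl had 18.1 and 19.7 CPM in RBPJ 6 days induced, 36.2 and 62.3 CPM in RBPJ uninduced and 24.8 and 14.5 CPM in Control libraries, so it too was highest in RBPJ uninduced replicate 2.

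To compare levels between genes, CPM were divided by the length of merged exons in kilobases (RPKM). The 3 D cyclins summed to 39.4 and 37.3 RPKM in RBPJ 6 days induced libraries, 46.96 and 48.8 RPKM in RBPJ uninduced libraries and 46.4 and 45.9 RPKM in Control libraries. Ccnd1 made up 10.3% and 6.79% of that sum in RBPJ 6 days induced libraries, 26.0% and 23.0% in RBPJ uninduced libraries and 10.8% and 15.2% in Control libraries. Ccnd2 was the largest component throughout, at 63.6% and 64.2% in RBPJ 6 days induced, 53.7% and 46.9% in RBPJ uninduced and 69.6% and 57.6% in Control libraries. The RBPJ uninduced libraries thus had the highest share of Ccnd1 and the lowest share of Ccnd2, with no overlap between RBPJ uninduced and the other groups. These shares are given as a description, without a test.

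**Figure D2:**
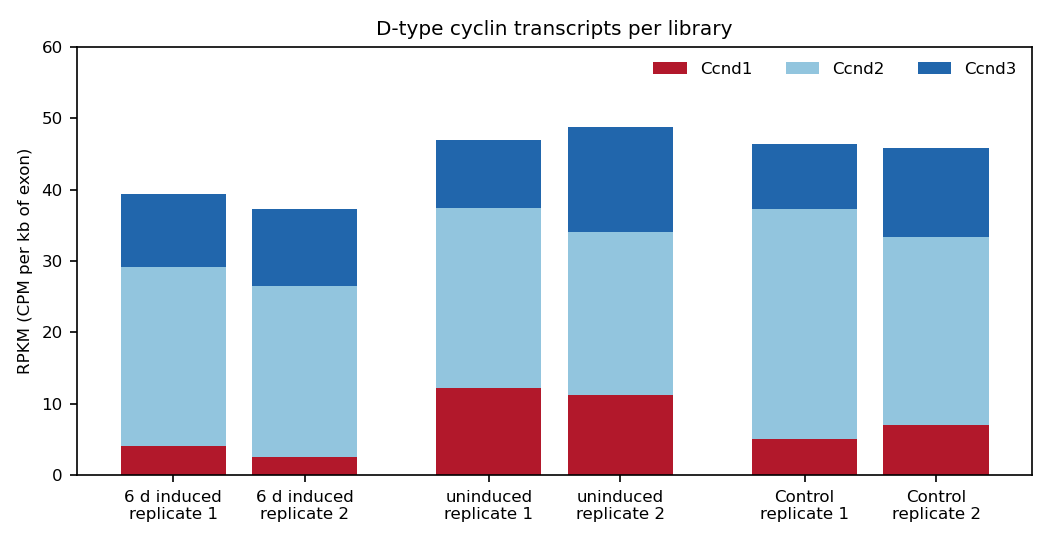
Length-scaled level (RPKM, vertical axis) of Ccnd1, Ccnd2 and Ccnd3 stacked for each library. The Ccnd1 segment is 12.2 and 11.2 RPKM in RBPJ uninduced libraries, the tallest of the 6, and 4.05 and 2.53 RPKM in RBPJ 6 days induced libraries, the shortest.

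Cdk6, the partner kinase that is prominent in blood progenitors, had 1131 and 1267 CPM in RBPJ 6 days induced libraries, 1376 and 639.7 CPM in RBPJ uninduced libraries and 1212 and 933 CPM in Control libraries. Its highest and its lowest level both came from the RBPJ uninduced group, the lowest from the library highest in B-lineage RNA and mitochondrial rRNA. There the libraries differed 2.15-fold, and 17.6% of 11365 genes (those averaging 2 or more in log2 CPM) differed at least as much between these libraries. The log2 fold change of Cdk6 was 0.25 in RBPJ 6 days induced against RBPJ uninduced libraries (interval -0.44 to 0.94, adjusted p = 0.773) and -0.09 in RBPJ uninduced against Control libraries (interval -0.78 to 0.60, adjusted p = 0.944). Without RBPJ uninduced replicate 1 the value for RBPJ 6 days induced against RBPJ uninduced was 0.96 and passed the threshold (adjusted p = 0.0258), while without RBPJ uninduced replicate 2 it was -0.19 (adjusted p = 0.691), so the direction rested on which RBPJ uninduced library was used.

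Cdk4, the other D cyclin kinase, had 82.8 and 87.7 CPM in RBPJ 6 days induced libraries, 109.9 and 104.5 CPM in RBPJ uninduced libraries and 119 and 86.5 CPM in Control libraries. Both RBPJ 6 days induced libraries lay below both RBPJ uninduced libraries, while Control replicate 1 was the highest of the 6 and Control replicate 2 lay between the RBPJ 6 days induced libraries. For Cdk4 the log2 fold change was -0.33 in RBPJ 6 days induced against RBPJ uninduced libraries (interval -0.80 to 0.14, adjusted p = 0.508), 0.06 in RBPJ uninduced against Control libraries (adjusted p = 0.948) and -0.27 in RBPJ 6 days induced against Control libraries (adjusted p = 1). Tspan31 shares 641 bases of exon with Cdk4 on the opposite strand and had 18.3 and 17.2 CPM in RBPJ 6 days induced, 16.0 and 16.8 CPM in RBPJ uninduced and 22.3 and 11.1 CPM in Control libraries. Per length, Cdk6 accounted for 76.0% and 77.0% of the summed RPKM of both kinases in RBPJ 6 days induced, 74.4% and 58.7% in RBPJ uninduced and 70.3% and 71.5% in Control libraries.

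Cdkn1b (p27), the inhibitor that holds cells in G1 when mitogens are withdrawn, had 89.5 and 106 CPM in RBPJ 6 days induced libraries, 59.5 and 66.2 CPM in RBPJ uninduced libraries and 71.7 and 66.5 CPM in Control libraries. Both RBPJ 6 days induced libraries lay above the other 4. The group means were 97.8 ± 11.8 CPM in RBPJ 6 days induced, 62.8 ± 4.77 CPM in RBPJ uninduced and 69.1 ± 3.69 CPM in Control (SD, n = 2 each). Cdkn1b had a log2 fold change of 0.64 in RBPJ 6 days induced against RBPJ uninduced libraries (SE 0.202, interval 0.18 to 1.09), which did not pass the threshold (adjusted p = 0.16). It was 0.50 against Control (SE 0.201, interval 0.05 to 0.95, adjusted p = 0.862).

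Cdkn1a (p21), a target of the tumour suppressor p53, had 13.6 and 13.3 CPM in RBPJ 6 days induced libraries, 8.69 and 6.80 CPM in RBPJ uninduced libraries and 9.82 and 32.7 CPM in Control libraries. Control replicate 2 was the highest of the 6, at 3.33 times Control replicate 1, and 3.62% of the 11365 genes differed at least as much between the Control libraries. The log2 fold change of Cdkn1a was 0.80 in RBPJ 6 days induced against RBPJ uninduced libraries (interval -0.40 to 2.01, adjusted p = 0.53) and -1.45 in RBPJ uninduced against Control libraries (SE 0.542, interval -2.67 to -0.23, adjusted p = 0.182). It was -0.64 in RBPJ 6 days induced against Control libraries with both Control libraries and 0.42 without Control replicate 2, the library with the most later thymocyte RNA (adjusted p = 1 in both fits).

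Cdkn2c (p18) was low, with 7.33 and 6.15 CPM in RBPJ 6 days induced libraries, 5.22 and 16.4 CPM in RBPJ uninduced libraries and 2.82 and 6.19 CPM in Control libraries. RBPJ uninduced replicate 2, the library highest in B-lineage RNA and mitochondrial rRNA, held the highest level, at 3.14 times that of RBPJ uninduced replicate 1. The log2 fold change of Cdkn2c in RBPJ uninduced against Control libraries was 1.29 (SE 0.669, interval -0.21 to 2.80, adjusted p = 0.349). It reached 1.86 and passed without RBPJ uninduced replicate 1 (adjusted p = 0.046), and was 0.23 at the lowest of the alternatives. It was -0.69 in RBPJ 6 days induced against RBPJ uninduced libraries (interval -2.15 to 0.78, adjusted p = 0.688) and turned to 0.38 without RBPJ uninduced replicate 2 (adjusted p = 0.802).

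Cdkn2d (p19), another inhibitor that binds Cdk4 and Cdk6, had 16.4 and 10.5 CPM in RBPJ 6 days induced libraries, 9.39 and 7.80 CPM in RBPJ uninduced libraries and 14.7 and 20.7 CPM in Control libraries. Both RBPJ uninduced libraries lay below the other 4. Cdkn2d had a log2 fold change of 0.65 in RBPJ 6 days induced against RBPJ uninduced libraries (interval -0.26 to 1.56, adjusted p = 0.497). It was -1.04 in RBPJ uninduced against Control libraries (SE 0.407, interval -1.95 to -0.12, adjusted p = 0.201).

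The 4 inhibitors summed to 36.6 and 36.0 RPKM in RBPJ 6 days induced libraries, 23.4 and 27.5 RPKM in RBPJ uninduced libraries and 28.9 and 39.3 RPKM in Control libraries. Divided by the summed RPKM of the D cyclins, this gave ratios of 0.929 and 0.966 in RBPJ 6 days induced, 0.499 and 0.564 in RBPJ uninduced and 0.623 and 0.856 in Control libraries. The RBPJ 6 days induced libraries had the highest ratios and the RBPJ uninduced libraries the lowest, with no overlap of groups and no test. Cdkn1b was the largest inhibitor component, at 53.6% and 64.7% of the inhibitor sum in RBPJ 6 days induced, 55.8% and 52.9% in RBPJ uninduced and 54.5% and 37.2% in Control libraries.

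Rb1, which encodes the retinoblastoma protein that the D cyclin kinases phosphorylate, had 39.3 and 48.7 CPM in RBPJ 6 days induced libraries, 50.6 and 70.0 CPM in RBPJ uninduced libraries and 42.7 and 45.3 CPM in Control libraries. Both RBPJ uninduced libraries lay above the other 4, and the RBPJ 6 days induced libraries spanned Control. Rb1 had a log2 fold change of -0.46 in RBPJ 6 days induced against RBPJ uninduced libraries (interval -1.02 to 0.10, adjusted p = 0.44) and 0.46 in RBPJ uninduced against Control libraries (interval -0.11 to 1.02, adjusted p = 0.38). It was 0.00 in RBPJ 6 days induced against Control libraries, with an interval of -0.56 to 0.56. Rcbtb2 and Lpar6 share 488 and 408 bases of exon with Rb1 on the opposite strand, and Lpar6 rose in RBPJ 6 days induced against RBPJ uninduced libraries (log2 fold change 1.75, adjusted p = 0.0446).

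Counted by levels that do not overlap between groups, 6 of the 10 genes separated RBPJ 6 days induced from RBPJ uninduced libraries, where 46.6% of all tested genes did (24.8% higher and 21.8% lower). Of these, Ccnd1, Cdk4 and Rb1 were lower and Cdkn1a, Cdkn1b and Cdkn2d were higher in RBPJ 6 days induced libraries. Likewise 6 of the 10 separated RBPJ uninduced from Control libraries, where 44.3% of all genes did (22.1% higher and 22.2% lower), with Ccnd1 and Rb1 higher and Ccnd2, Cdkn1a, Cdkn1b and Cdkn2d lower in RBPJ uninduced libraries. For RBPJ 6 days induced against Control the count was 3 of 10, with Ccnd1 and Ccnd2 lower and Cdkn1b higher, where 37.5% of all genes did not overlap (20.8% higher and 16.8% lower). Comparisons in pairs of the 3 groups share libraries, so their values are not independent of each other.

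**Figure D3:**
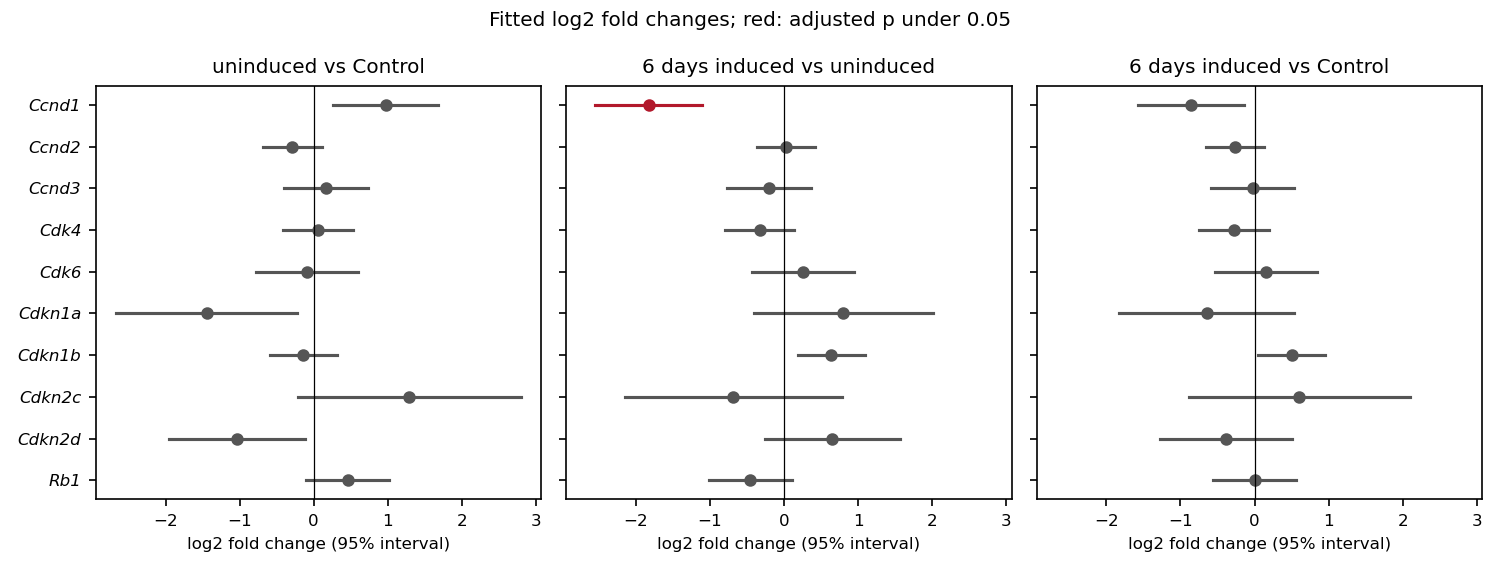
Fitted log2 fold changes (horizontal axis) of the 10 genes in the 3 comparisons, with 95% intervals from the quasi-likelihood standard error. Ccnd1 in RBPJ 6 days induced against RBPJ uninduced libraries, at -1.83, is the value drawn in red for an adjusted p under 0.05, and the intervals of Cdkn1a and Cdkn2c are the widest.

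By mean RPKM, the order in RBPJ 6 days induced libraries was Cdk6 (85.7), Cdk4 (26.2), Ccnd2 (24.5), Cdkn1b (21.5), Ccnd3 (10.6), Cdkn2d (8.56), Rb1 (7.32), Cdkn1a (3.79), Ccnd1 (3.29) and Cdkn2c (2.51). The libraries of neighbours overlapped from Ccnd3 to Rb1 and from Cdkn1a to Cdkn2c, and the other neighbours stood apart. In RBPJ uninduced libraries it was Cdk6 (72.1), Cdk4 (33.0), Ccnd2 (24.1), Cdkn1b (13.8), Ccnd3 (12.1), Ccnd1 (11.7), Rb1 (10.02), Cdkn2d (5.46), Cdkn2c (4.02) and Cdkn1a (2.18), with overlapping neighbours from Cdkn1b to Rb1 and from Cdkn2d to Cdkn1a. In Control libraries it was Cdk6 (76.6), Cdk4 (31.7), Ccnd2 (29.3), Cdkn1b (15.2), Cdkn2d (11.2), Ccnd3 (10.8), Rb1 (7.32), Ccnd1 (6.00), Cdkn1a (5.99) and Cdkn2c (1.68), where Cdk4 overlapped Ccnd2, Cdkn2d overlapped Ccnd3 and Ccnd1 overlapped Cdkn1a. Ccnd1 was thus ninth in RBPJ 6 days induced, sixth in RBPJ uninduced and eighth in Control libraries, while Cdk6, Cdk4, Ccnd2 and Cdkn1b held the first 4 places in every group.

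Across the 6 libraries, which share depth and cell makeup as sources of variation, the log2 CPM of Selenos, Atp5j and Bzw1 followed Ccnd1 most closely of 7210 protein-coding genes (Pearson r 0.995, 0.988 and 0.986). Plekhg3, Tpm3 and Selenok were closest to Ccnd2 (0.960, 0.957 and 0.941), and Ikzf3, Taf6l and Sphk2 to Ccnd3 (0.990, 0.990 and 0.989). Of the 7210 genes, 103 had an r above 0.9 with Ccnd1, 16 with Ccnd2 and 43 with Ccnd3. With 6 libraries, a high r is weak evidence of a link between genes. Among the 10 genes, the lowest r was that of Ccnd1 with Cdkn1b (-0.938) and the highest that of Ccnd3 with Cdkn2c (0.874).

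Promoter windows of 250 bases before the gene start, from RefSeq on GRCm38.p6, were at hand for 7 of the 10 genes, 10 windows in all. No window was at hand for Ccnd1, Ccnd2 or Rb1, so the promoters of these genes were not searched. The letters TGGGAA, the core of the site that RBPJ binds, were searched on both strands and were found in 3 of these 10 windows, and in 21.6% of all 32851 windows. The matches are shown because RBPJ is the factor that was switched, within 30 bases read 5′ to 3′ on the strand of the gene, with the match in capitals. All lie as the reverse complement.
Cdkn2d, chr9:21291401-21291430, minus strand: gattggctgttaTTCCCAgcaggcgggact
Cdk4, chr10:127063382-127063411, plus strand: ccacacctctgcTTCCCAgcgcaaagtcaa
Cdkn1a, chr17:29093640-29093669, plus strand: cgcgggcttagaTTCCCAgaggggagggcg
Counted to the RefSeq start of their own window, they lie 209, 141 and 117 bases before it in Cdkn2d, Cdk4 and Cdkn1a. GENCODE M21 places the starts of some of these genes elsewhere. The Cdkn1a match belongs to the window of a second start inside the gene, whose GENCODE span begins at base 29090976, and the window at that outer start held no match. The RefSeq start of Cdkn2d lies downstream of the GENCODE start at base 21291407, which falls within the 30 bases shown. None of these genes was called in any comparison, and a match of 6 letters describes sequence, not binding. The E2F letters TTTGGCGC, TTTCCCGC, TTTCGCGC and TTTGCCGC were in 0 of the 10 windows and in 1.86% of all windows.

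The neighbours of the D cyclin step were followed in 8 lists, of which 82 different genes were tested. In RBPJ uninduced against Control libraries, 2 of 12 E2F and pocket protein genes, 1 of 10 genes of the cyclin E and Cdk2 step and 6 of 12 dividing-cell genes rose, and none of these fell. Of 15 upstream regulators 1 fell, and of 10 quiescence and stem cell genes 1 rose and 1 fell. Of all tested genes, 2.49% rose and 2.93% fell in that comparison. In RBPJ 6 days induced against RBPJ uninduced libraries, 1 of the 12 E2F and pocket protein genes and 4 of the 12 dividing-cell genes fell, while 1 upstream regulator and 1 quiescence gene rose. Of all tested genes, 1.55% rose and 0.413% fell there. Beside these counts, the median log2 fold change of the E2F and pocket protein genes was -0.74 and that of the dividing-cell genes -1.02 in RBPJ 6 days induced against RBPJ uninduced libraries. In RBPJ uninduced against Control libraries these medians were 0.52 and 0.81. Over all genes the median was -0.03 in the former comparison and -0.02 in the latter.

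E2f8, an E2F family repressor that is itself made as cells enter S phase, had 70.7 and 65.5 CPM in RBPJ 6 days induced libraries, 174 and 171 CPM in RBPJ uninduced libraries and 34.4 and 30.8 CPM in Control libraries. It rose in RBPJ uninduced against Control libraries (log2 fold change 2.40, SE 0.196, adjusted p = 0.00044), a call kept in all 15 alternatives. It fell in RBPJ 6 days induced against RBPJ uninduced libraries (-1.34, SE 0.188, adjusted p = 0.0104), a call lost without RBPJ 6 days induced replicate 1 (adjusted p = 0.075) or replicate 2 (adjusted p = 0.104). Tfdp1, the DNA-binding partner of E2F factors, had 105.5 and 112 CPM in RBPJ 6 days induced libraries, 191 and 189.5 CPM in RBPJ uninduced libraries and 114.5 and 93.8 CPM in Control libraries. It rose in RBPJ uninduced against Control libraries (0.87, SE 0.185, adjusted p = 0.0294). That call held in 9 of 15 alternatives and was lost without Control replicate 1 (adjusted p = 0.0667), Control replicate 2 (0.233), RBPJ 6 days induced replicate 1 (0.0701) or RBPJ 6 days induced replicate 2 (0.0926).

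Ccne1, the cyclin that takes over from D cyclins late in G1, had 9.36 and 7.55 CPM in RBPJ 6 days induced libraries, 17.2 and 54.1 CPM in RBPJ uninduced libraries and 3.88 and 7.96 CPM in Control libraries. Both RBPJ uninduced libraries were above the other 4, with replicate 2 far above replicate 1. Ccne1 rose in RBPJ uninduced against Control libraries (log2 fold change 2.63, SE 0.585, adjusted p = 0.0348). That call was lost in a fit of only the 4 libraries compared (2.58, adjusted p = 0.129). It was also lost without Control replicate 1 (2.21), Control replicate 2 (3.09) or RBPJ uninduced replicate 2. The log2 fold change of Ccne1 was 1.57 without RBPJ uninduced replicate 2, the library rich in B-lineage RNA and mitochondrial rRNA, whose part was not tested. In RBPJ 6 days induced against RBPJ uninduced libraries no gene of the cyclin E and Cdk2 list was called. The unadjusted p was under 0.05 for 4 of 10, beside 15.4% of all genes. DESeq2, which called 1033 of all genes there against 357 by edgeR, called 2 of the 10. The smallest p-values were those of Ccna2 (-1.19, adjusted p = 0.092) and Ccne1 (-2.08, adjusted p = 0.109).

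Mycn, a Myc family factor that drives growth of progenitors, had 98.1 and 107 CPM in RBPJ 6 days induced libraries, 14.8 and 10.5 CPM in RBPJ uninduced libraries and 107 and 52.2 CPM in Control libraries. It rose in RBPJ 6 days induced against RBPJ uninduced libraries (log2 fold change 3.03, SE 0.359, adjusted p = 0.00517) and fell in RBPJ uninduced against Control libraries (-2.67, SE 0.355, adjusted p = 0.00405). Both calls held in all 15 alternatives, and the value against Control was -2.03 without Control replicate 1. Btg1, an antiproliferative gene of resting lymphoid cells, had 242 and 209 CPM in RBPJ 6 days induced libraries, 79.6 and 123 CPM in RBPJ uninduced libraries and 215 and 240.2 CPM in Control libraries. Btg1 rose in RBPJ 6 days induced against RBPJ uninduced libraries (1.15, SE 0.227, adjusted p = 0.0387). That call was lost without RBPJ 6 days induced replicate 1 (1.06) and in a fit of only the 4 libraries compared (1.17, adjusted p = 0.0978). Btg1 fell in RBPJ uninduced against Control libraries (-1.17, SE 0.227, adjusted p = 0.0207). This call was lost without Control replicate 1 (-1.21) and in a fit of only the 4 libraries compared (-1.19, adjusted p = 0.0895).

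Hlf, a factor of blood stem cells, had 19.2 and 29.4 CPM in RBPJ 6 days induced libraries, 74.6 and 12.7 CPM in RBPJ uninduced libraries and 3.20 and 7.08 CPM in Control libraries. RBPJ uninduced replicate 1 alone stood far above the rest. The rise of Hlf in RBPJ uninduced against Control libraries (log2 fold change 3.13, SE 0.762, adjusted p = 0.0477) held in 7 of 15 alternatives. It was lost without RBPJ uninduced replicate 1 (log2 fold change 1.32, adjusted p = 0.0914), Control replicate 1 (2.62, 0.168) or Control replicate 2 (3.69, 0.105), and the value was 3.93 without RBPJ uninduced replicate 2.

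Among the dividing-cell genes, all 12 were lower in RBPJ 6 days induced than in RBPJ uninduced libraries, with no overlap of groups, where 21.8% of all genes were. All 12 were likewise higher in RBPJ uninduced than in Control libraries without overlap, where 22.1% of all genes were. Rrm2, a subunit of ribonucleotide reductase, had 29.6 and 25.2 CPM in RBPJ 6 days induced libraries, 70.1 and 99.2 CPM in RBPJ uninduced libraries and 36.3 and 38.2 CPM in Control libraries. It fell in RBPJ 6 days induced against RBPJ uninduced libraries (log2 fold change -1.63, SE 0.254, adjusted p = 0.0161). The helicase subunits Mcm2 (-1.04, adjusted p = 0.0259) and Mcm5 (-1.01, adjusted p = 0.0369) and the origin-licensing factor Cdc6 (-1.41, adjusted p = 0.035) fell as well. All 4 calls were lost without RBPJ 6 days induced replicate 1 and without RBPJ 6 days induced replicate 2. They were also lost in a fit of only the 4 libraries compared (adjusted p 0.0606 to 0.0942). With plain library totals the calls of Mcm2 (adjusted p = 0.0565) and Mcm5 (0.0575) were lost. In RBPJ uninduced against Control libraries Mki67, a marker of cycling cells, rose (0.96, adjusted p = 0.0196), as did Mcm2 (0.86, adjusted p = 0.0273), Rrm2 (1.19, adjusted p = 0.0289), Cdc6 (1.20, adjusted p = 0.0356), Aurkb and Top2a. All 6 of these calls were lost without Control replicate 1 (adjusted p 0.0515 to 0.217) and without Control replicate 2 (0.0731 to 0.282). Mki67 and Rrm2 passed in 12 of 15 alternatives, Cdc6 in 11, Mcm2 and Aurkb in 9 and Top2a in 5, and Mcm2, Aurkb and Top2a were also lost without either RBPJ 6 days induced library (adjusted p 0.0631 to 0.185). Top2a was lost without RBPJ uninduced replicate 1 (0.0668) or replicate 2 (0.0694) as well, and Cdc6 without RBPJ uninduced replicate 2 (0.0771).

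The remaining lists held no called gene in either of these comparisons. The list of p53 targets holds none of the 10 genes, so it leaves out Cdkn1a. Of its 15 genes, 0 were called in RBPJ 6 days induced against RBPJ uninduced libraries. Of these 15, 4 had an unadjusted p under 0.05, beside 15.4% of all genes. DESeq2, which called 1033 of all genes there against 357 by edgeR, called 1 of the 15. In RBPJ uninduced against Control libraries 0 of 15 were called, with 5 at an unadjusted p under 0.05, beside 18.8% of all genes. DESeq2, which called 1675 of all genes there against 985 by edgeR, called 2 of the 15. Btg2, an antiproliferative relative of Btg1, had the smallest p there (log2 fold change -1.24, adjusted p = 0.0564). Of 8 genes of the CDK-activating kinase and of D cyclin turnover, none was called in either comparison, with 0 and 1 at an unadjusted p under 0.05 and none called by DESeq2. The smallest p there was that of Ccnh, the cyclin of the activating kinase, in RBPJ uninduced against Control libraries (0.74, adjusted p = 0.203).

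Of the other CDK inhibitors, Cdkn2a and Cdkn2b were too low to test, with at most 4 and 7 counts in any library, and Cdkn1c and Cdkn3 were tested and not called, with none at an unadjusted p under 0.05 and none called by DESeq2. Cdkn3, a phosphatase that acts on cyclin-dependent kinases, had 5.48 and 2.80 CPM in RBPJ 6 days induced, 6.08 and 6.35 CPM in RBPJ uninduced and 2.13 and 1.95 CPM in Control libraries.

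In RBPJ 6 days induced against Control libraries none of the 82 genes was called by edgeR, with 4 at an unadjusted p under 0.05, beside 5.17% of all genes. DESeq2, which called 212 of all genes there against 34 by edgeR, called 2 of the 82. The smallest p-values were those of Txnip, which encodes a thioredoxin-interacting protein that restrains growth (log2 fold change 1.19, adjusted p = 0.0616), and E2f8 (1.06, adjusted p = 0.0722).

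**Figure D4:**
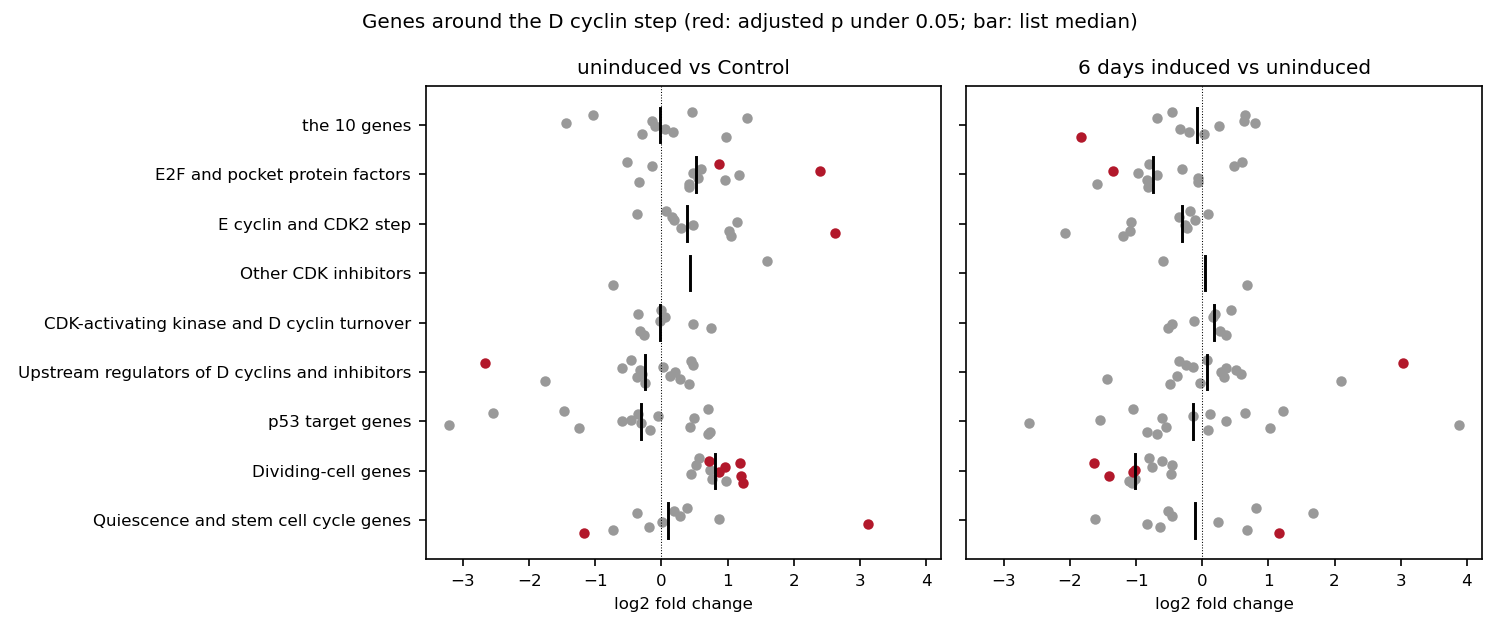
Log2 fold change (horizontal axis) of every tested gene in the 10-gene set and the 8 lists around it, for RBPJ uninduced against Control and for RBPJ 6 days induced against RBPJ uninduced libraries. Each point is a gene, red points have an adjusted p under 0.05, and bars are list medians, which for dividing-cell genes lie at 0.81 and -1.02.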

How the data were processed

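The deposited files hold counts of reads per Ensembl gene, whole numbers with no normalization, 1 file per library. The tools HISAT2, StringTie and HTSeq were used with build mm10, per the submitters' processing notes, which state no versions, roles or strand setting. Gene names and exon lengths came from GENCODE M21 (GRCm38, the same build as mm10), which matched 47310 of 47729 IDs.

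Tests of these counts used edgeR 4.0.16 in R 4.3.3 (filterByExpr, minimum count 10 and minimum total 15; TMM factors 0.824 to 1.13; glmQLFit and glmQLFTest on all 6 libraries, a mean per group, 3 residual degrees of freedom). CPM use TMM-scaled totals, and RPKM are CPM per kilobase of merged exons. The SE is the log2 fold change divided by the square root of F, and 95% intervals use the residual and prior degrees of freedom. Alternatives included DESeq2 1.42.0. Near-identical copies were sought with BLAST+ 2.17.0. The fit was also run on simulated data, with no outcome given here.

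The 10 genes, the 8 pathway lists and the 7 marker lists were chosen with earlier results of these data known. Named genes are all 10, up to 4 called genes per pathway list with the smallest p (up to 2 uncalled ones where none passed), and the 3 genes most like each D cyclin. Aurkb, Top2a, Bysl, LTO1, Tspan31, Rcbtb2 and Lpar6 were named after their values were seen. Genes named singly from the marker lists, such as Hes1, Lmo2, Csf1r and Il2ra, were also not chosen by that rule.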

Additional observations from a re-analysis of the deposited data

How the results depend on the processing

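Over 15 alternatives, 405 of 450 fold changes of the 10 genes kept their direction and their side of the threshold, 37 changed sign, 2 lost and 6 gained a call. No gene that changed sign had been called, and the largest size among them was 0.69 on the log2 scale. The causes were not tested. Genes called in RBPJ 6 days induced against RBPJ uninduced libraries numbered 357, against 1033 by DESeq2, 989 with no low-count filter, 71 with only the 4 libraries compared, and 171 to 1374 with a library left out. For RBPJ uninduced against Control the 985 genes became 1675, 1540, 219 and 445 to 2000, and for RBPJ 6 days induced against Control the 34 became 212, 304, 177 and 30 to 337. Of the 10 genes, 0 to 2, 0 to 1 and 0 were called with a library left out, and 0 in RBPJ 6 days induced against RBPJ uninduced with only 4 libraries. Without Control replicate 2 and RBPJ uninduced replicate 2 together, 3796, 3673 and 908 genes and 2 (Ccnd1 and Cdkn1b), 1 (Ccnd1) and 2 (Ccnd2 and Cdk4) of the 10 were called. That fit has 1 residual degree of freedom, its spread comes from the RBPJ 6 days induced pair alone, and its calls are not read as support.

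Same-numbered libraries did not deviate together (correlations 0.0107, 0.0253 and -0.0407). The deviations also hold the B-lineage and later thymocyte RNA of single libraries, so this does not settle whether the numbers pair them. The replicate block gave 534, 1147 and 108 called genes and 1, 0 and 0 of the 10.

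Signs turned as follows, given as the range with a library left out. In RBPJ 6 days induced against RBPJ uninduced they were -0.026 to 0.15 for Ccnd2, -0.42 to 0.16 for Ccnd3, -0.19 to 0.96 for Cdk6 and -1.22 to 0.38 for Cdkn2c, and without Control replicate 2 and RBPJ uninduced replicate 2 together -0.035, 0.15, -0.19 and 0.37. In RBPJ uninduced against Control they were -0.18 to 0.41 for Ccnd3, -0.25 to 0.34 for Cdk4 and -0.80 to 0.34 for Cdk6, and without that pair of libraries Cdk4 was -0.16 and Cdk6 0.14. Cdk4 was also -0.00086 by DESeq2, -0.032 with plain totals and -0.029 with upper-quartile factors. In RBPJ 6 days induced against Control they were -0.19 to 0.17 for Ccnd3, -0.52 to 0.028 for Cdk4, -0.054 to 0.41 for Cdk6, -1.23 to 0.42 for Cdkn1a and -0.18 to 0.18 for Rb1, and without that pair Ccnd3 was 0.18, Cdk6 -0.05 and Cdkn1a 0.42. Ccnd3 was 0.010 with no filter. Rb1 was -0.064 by DESeq2, -0.067 with RLE factors, -0.053 at a minimum count of 30, -0.045 with 4 libraries, -0.085 with plain totals, -0.089 with upper-quartile factors and -0.012 with the block.

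Plain totals and upper-quartile factors moved the median of all genes in RBPJ uninduced against Control to -0.13 and -0.12, against -0.02. A group left with 1 library was assumed to vary like the others. With 5098927 to 12932928 counts per library, Cdkn2c and Cdkn1a rest on few reads, and a gene that missed the threshold is not shown to be equal between groups.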
